A study of Arabidopsis thaliana with 12 samples.

Results

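The genes described here encode the packaging proteins of newly made chromatin, the cyclins and the helicase that licenses DNA replication. They were chosen by their description in the deposited gene table, which had to begin with Histone H1, H2, H3 or H4 or with Cyclin-, or to contain DNA replication licensing factor. Descriptions with transferase, kinase or demethylase were left out. This gave 74 of the 32954 genes in the table, with 37 histones, 29 cyclins, 5 licensing factors and 3 genes that are neither. These 3 are a histone H2A deubiquitinase (*At3g07565*), a cyclin-D1-binding protein (*At1g71150*) and a cyclin-like protein (*At1g70620*).

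RNA from leaves or leaf discs of *Arabidopsis thaliana* Col-0 was sequenced from 3 genotypes with 4 biological replicates each. The overexpressor (line #5) carried the *pGlcT2* cDNA behind the 35S promoter of cauliflower mosaic virus, a promoter active in most plant cells. The study's results text places this transgene in the *glct2* line, whereas its methods name that background only for a complementation line. The line *glct2* (Salk_052078) carried a T-DNA in the first intron of *pGlcT2*, which encodes a glucose transporter of the chloroplast envelope. The wild types had neither insertion nor transgene. All genotypes grew under short days for 24 days before a continuous illumination of 100 to 120 µmol quanta m−2 s−1 that lasted 10 to 12 days. Each mutant genotype was a single line, so that a line and its genotype cannot be told apart.

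Histones H2A, H2B, H3 and H4 form the nucleosome core, and H1 binds the DNA between nucleosomes. Most plant histone genes are transcribed in S phase, when the doubled DNA needs new nucleosomes. Histone H3.3 and the H2A variants are also made outside S phase. The MCM proteins form the ring that opens DNA at replication origins. D-type cyclins act at the entry into the cell cycle, A-type cyclins mainly from S phase onwards and B-type cyclins at mitosis. Cyclins of the C, L and T types are instead partners of kinases that act on transcription, and U-type (also P-type) cyclins resemble cyclins of the yeast phosphate response.

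The promoters of these genes carry short sequence motifs that differ by class, and the following sequences show the motifs of the members the results turn on. All are the 180 bases before the annotated 5′ end, read from the RefSeq TAIR10.1 genome, in which all 74 members start and end as in the deposited table. Capitals mark 4 kinds of motif, on either strand. They are the histone octamer CGCGGATC and the histone hexamer ACGTCA, both known from plant histone promoters, the binding motif of E2F factors, and the core of the MSA element bound by MYB3R factors. The E2F motif was spelled as TTTCCCGC, TTTCCCGG, TTTCGCGC, TTTCGCGG, TTTGCCGC, TTTGCCGG, TTTGGCGC or TTTGGCGG, and the MSA core as CCAACGG or CTAACGG. No matches of 2 kinds overlapped in the members.
HTR2 (*At1g09200*, an H3.1 gene, chr1:2972335-2972514, minus strand): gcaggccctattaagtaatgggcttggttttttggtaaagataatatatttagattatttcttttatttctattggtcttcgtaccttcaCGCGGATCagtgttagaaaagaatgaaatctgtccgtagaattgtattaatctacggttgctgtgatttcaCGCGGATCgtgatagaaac
At5g59690 (the H4 gene with the highest level, chr5:24051294-24051473, plus strand): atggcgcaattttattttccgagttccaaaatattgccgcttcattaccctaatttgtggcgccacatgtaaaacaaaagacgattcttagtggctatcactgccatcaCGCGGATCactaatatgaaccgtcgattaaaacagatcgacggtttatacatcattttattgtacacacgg
HTB9 (*At3g45980*, H2B, lower in the overexpressor, chr3:16898014-16898193, minus strand): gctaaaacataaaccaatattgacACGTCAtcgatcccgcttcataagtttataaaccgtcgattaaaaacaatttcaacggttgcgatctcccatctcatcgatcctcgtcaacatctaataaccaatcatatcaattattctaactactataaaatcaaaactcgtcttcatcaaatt
MCM5 (*At2g07690*, chr2:3527501-3527680, minus strand): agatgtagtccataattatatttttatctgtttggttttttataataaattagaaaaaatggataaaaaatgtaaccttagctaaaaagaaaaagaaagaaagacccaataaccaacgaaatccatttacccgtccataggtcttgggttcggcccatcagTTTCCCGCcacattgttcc
MCM3 (*At5g46280*, chr5:18773707-18773886, minus strand): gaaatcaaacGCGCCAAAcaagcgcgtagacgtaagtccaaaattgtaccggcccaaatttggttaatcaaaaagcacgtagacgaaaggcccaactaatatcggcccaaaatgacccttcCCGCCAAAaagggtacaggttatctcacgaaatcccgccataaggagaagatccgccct
CYCB1;2 (*At5g06150*, chr5:1861704-1861883, minus strand): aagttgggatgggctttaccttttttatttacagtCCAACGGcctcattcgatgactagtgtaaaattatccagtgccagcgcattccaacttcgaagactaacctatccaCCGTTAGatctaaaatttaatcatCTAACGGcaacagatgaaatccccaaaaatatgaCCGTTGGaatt
HTA12 (*At5g02560*, H2A, higher in the overexpressor, chr5:575045-575224, plus strand): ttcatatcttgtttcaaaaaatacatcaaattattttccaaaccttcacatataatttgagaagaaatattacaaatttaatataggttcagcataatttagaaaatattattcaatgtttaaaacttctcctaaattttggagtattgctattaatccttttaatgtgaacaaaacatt
CYCT1;3 (*At1g27630*, higher in the overexpressor, chr1:9610873-9611052, plus strand): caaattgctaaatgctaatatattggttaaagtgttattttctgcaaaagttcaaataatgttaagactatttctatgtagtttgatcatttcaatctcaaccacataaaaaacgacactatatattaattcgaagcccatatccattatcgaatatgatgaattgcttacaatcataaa
*HTR2* holds 2 octamers, *MCM3* holds 2 E2F motifs and *CYCB1;2* holds 4 MSA cores in these stretches. *HTA12* and *CYCT1;3* have none of the 4 motifs there.

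Over windows from 250 bases before to 50 bases after the 5′ end, the octamer was found in 7 of the 74 members (9.46%), against 0.146% of 27419 protein-coding genes. These 7 were 4 of 12 H3 genes, 2 of 8 H4 genes and 1 of 2 H1 genes. The hexamer was present in 20.3% of the members, against 9.19% of all genes, and 7 of its 15 members were H2B genes, of which there are 9. The E2F motif stood in 16.2% of the members, against 3.59% of all genes, and in 4 of the 5 MCM genes. The MSA core stood in 20.3% of the members, against 3.11% of all genes, and in 6 of 7 B-type cyclin genes and 4 of 8 H4 genes. In 33 members none of the 4 was found.

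**Figure D1:**
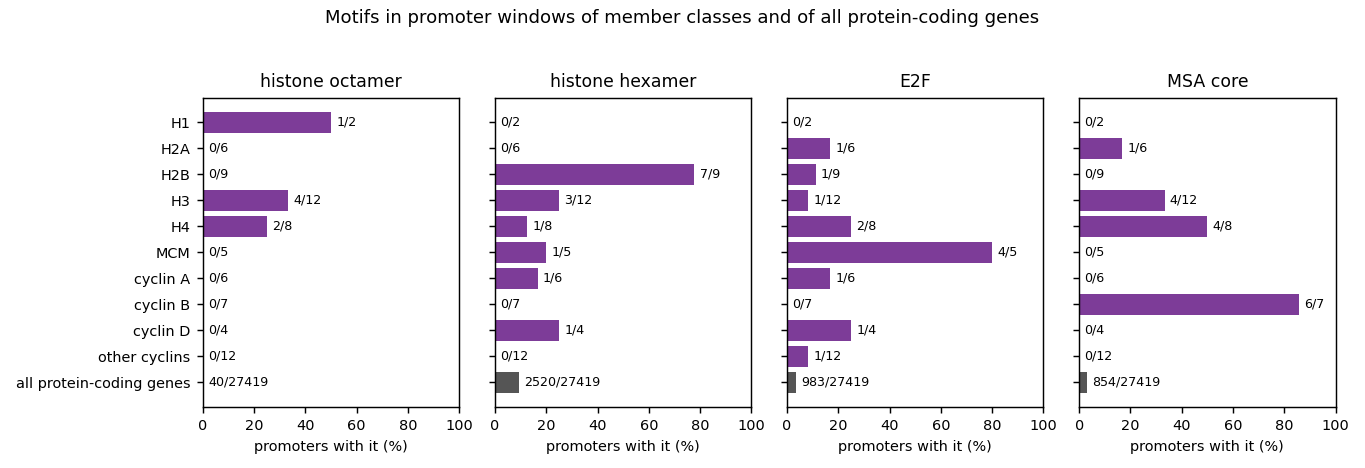
Share of promoter windows (x axis, percent, from 250 bases before to 50 bases after the 5′ end) that hold each of 4 motifs, for member classes (purple) and for all 27419 protein-coding genes (grey), with counts beside the bars. The MSA core is found in 6 of 7 B-type cyclin genes, the E2F motif in 4 of 5 MCM genes and the hexamer in 7 of 9 H2B genes.

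The *pGlcT2* mRNA itself separated the genotypes. It had 193, 180, 215 and 237 FPKM (fragments normalised to gene length and library size) in the overexpressor, 2.65, 3.00, 3.89 and 2.83 FPKM in *glct2*, and 9.39, 10.1, 8.26 and 9.48 FPKM in wild types. The reads recovered from the table were 17448191 to 22477845 in overexpressor libraries, 18471068 to 22418179 in *glct2* libraries and 19035449 to 24276381 in wild types. The mesophyll gene *LHCB1.3* was abundant in every library, with 3351 to 3844 FPKM for the overexpressor, 8173 to 12705 FPKM for *glct2* and 14206 to 19447 FPKM for wild types. The shoot meristem gene *STM* was also present, with 5.17 to 6.67 FPKM for the overexpressor, 4.97 to 8.22 FPKM for *glct2* and 6.65 to 10.6 FPKM for wild types, whereas the stem cell gene *CLV3* was at 0 in all 12 libraries.

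Levels differed widely between classes. The 2 highest H3 genes among the members, the H3.3 genes *At4g40040* and *HTR8*, held 60.0% of the summed FPKM of the 12 H3 members. Averaged over the 12 libraries, tested histone genes had 1.57 FPKM (*HTR12*, the centromeric H3) to 188 FPKM (*At4g40040*). The 5 MCM genes lay between 5.94 and 7.73 FPKM. Among the members, the A-type cyclins reached 9.26 FPKM, the D-type cyclins 7.91 FPKM and the B-type cyclins 4.55 FPKM. *CYCT1;3* and *RCY1*, a cyclin of the L type, had the highest levels of the other cyclin members. D-type genes whose descriptions fall outside the rule reached 17.0 FPKM. FPKM is divided by gene length, so that these levels can be set beside each other.

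Of the 74 members, 14 did not reach 1 FPKM in at least 4 libraries and were not tested. The H2B gene *At5g02570* and *CYCA3;3* were at 0 in every library. The other 12 had at most 1.15 FPKM in any library, among them *CYCB2;1*, *CYCA2;1*, *CYCJ18* and the H3-like gene *At1g13370*. The highest of these values came from the H3-like gene *At1g75600*, which had 1.15 FPKM in overexpressor replicate 3, at most 0.162 FPKM in the other 3 overexpressor libraries, 0 in *glct2* and at most 0.353 FPKM in wild types.

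In the overexpressor 9 of the 60 tested members passed the test against wild types (limma, Benjamini-Hochberg adjusted p under 0.05). Of all 18354 genes tested, 38.6% did, 18.7% higher and 19.9% lower in the overexpressor. Among the members 4 were higher and 5 lower. The median log2 difference was −0.06 over the members and 0.00 over all genes. Its absolute value had a median of 0.121 in the members and 0.208 in all genes. The labels call the replicates biological, without saying whether a replicate was a single plant or a pool. The 95% intervals of 46 members stayed within ±0.5 on the log2(FPKM + 1) scale. In RNA of whole tissue, fewer dividing cells and less RNA per dividing cell cannot be told apart.

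**Figure D2:**
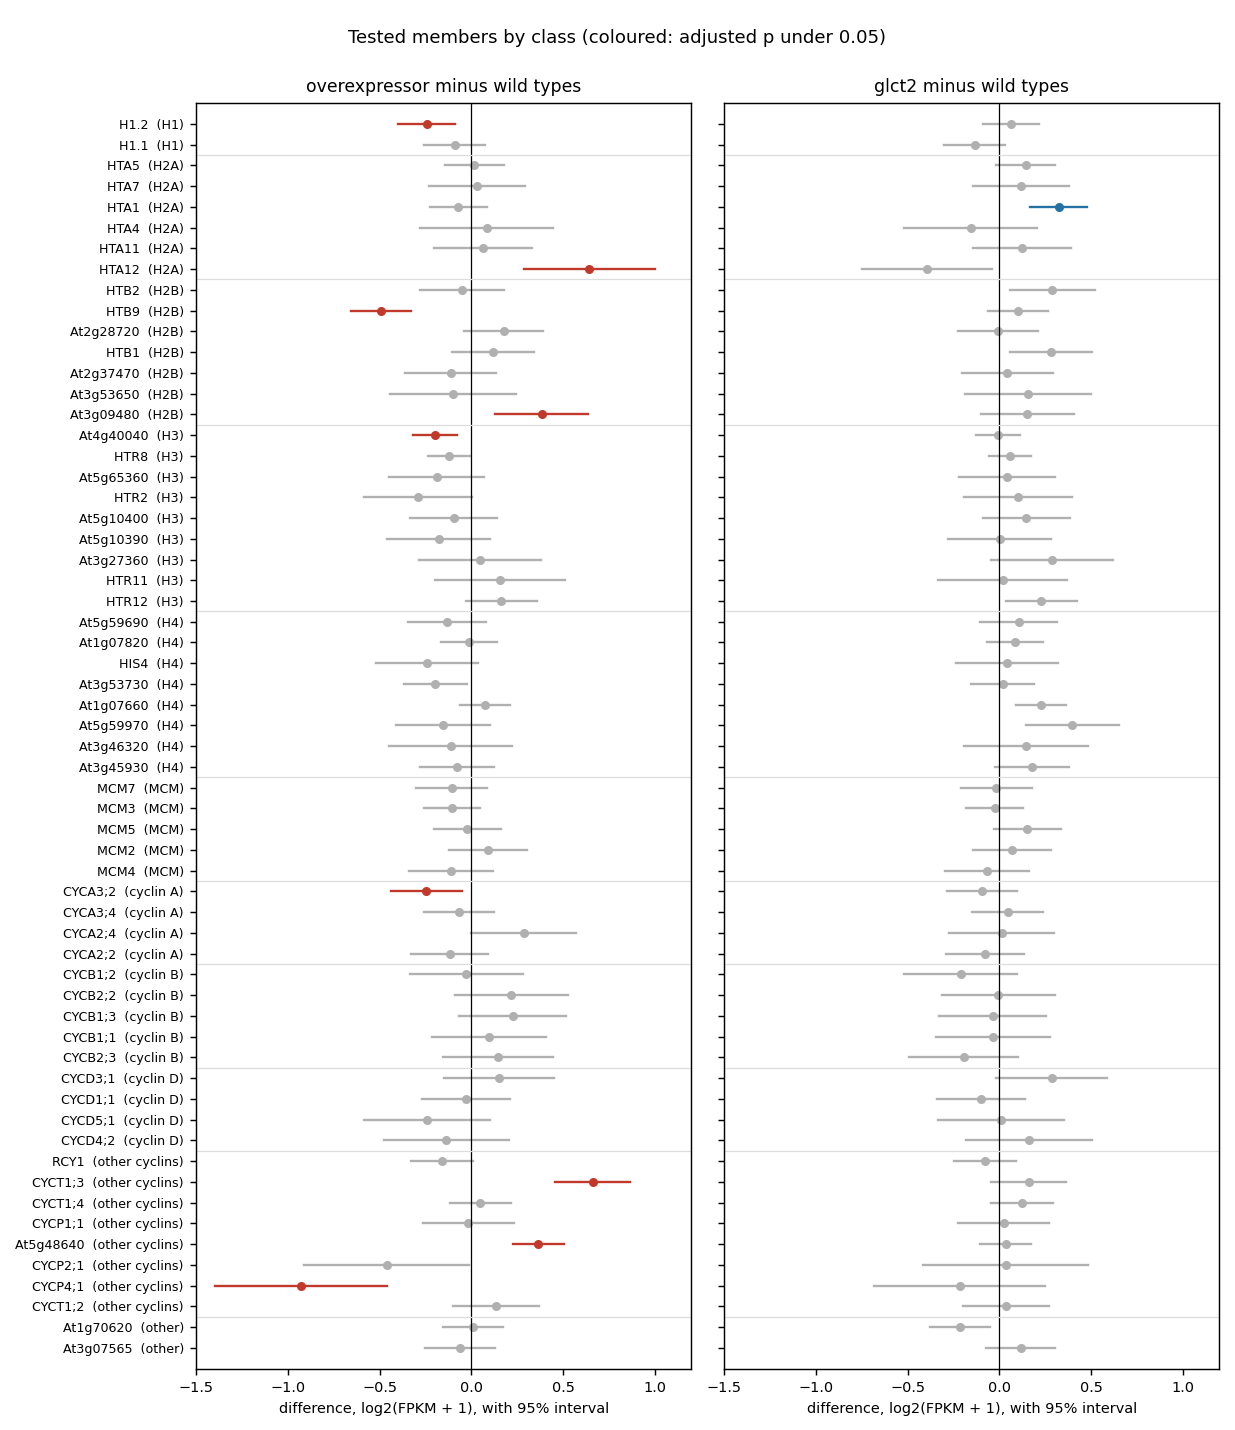
Difference of each of the 60 tested members from the wild types (x axis, log2(FPKM + 1), with its 95% interval) in the overexpressor (left) and in *glct2* (right), grouped by class. Coloured members passed the test at an adjusted p under 0.05, which were 9 in the overexpressor and 1 in *glct2*.

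The H2B gene *HTB9* fell in the overexpressor. It had 52.3, 61.7, 50.1 and 57.5 FPKM in the overexpressor, 78.8, 90.1, 85.6 and 81.5 FPKM in *glct2*, and 73.8, 74.8, 80.7 and 83.3 FPKM in wild types. Every overexpressor library lay below every other library. The log2 difference was −0.49 ± 0.08 (SE) against wild types (limma, adjusted p = 0.00032) and −0.60 against *glct2* (limma, adjusted p = 0.00019). *HTB9* overlaps 2 genes on the opposite strand, over 249 and 22 bases, and the strand setting of the counting is not given in the sources used here.

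The linker histone gene *H1.2* and the H3.3 gene *At4g40040* were also lower. *H1.2* had 92.7, 79.4, 97.2 and 90.1 FPKM in the overexpressor, against 109, 102, 104 and 111 FPKM in wild types, without overlap (log2 difference −0.24 ± 0.07 SE, limma adjusted p = 0.017). *At4g40040* had 176, 165, 176 and 169 FPKM in the overexpressor, against 195, 204, 193 and 195 FPKM in wild types (−0.20 ± 0.06 SE, limma adjusted p = 0.013). In both genes the overexpressor lay below the wild types without overlap, and the call of *H1.2* was lost without wild-type replicate 4 (limma, adjusted p = 0.051). The other H3.3 gene among the members, *HTR8*, had 137 to 140 FPKM in the overexpressor, against 146 to 155 FPKM in wild types. Its difference of −0.12 missed the threshold (limma, adjusted p = 0.084). A further H3.3 gene, *At4g40030*, whose description falls outside the rule, rose instead (0.22, limma adjusted p = 0.019). The other linker histone gene, *H1.1*, had a difference of −0.09 with an interval of −0.26 to 0.07.

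*HTA12*, which encodes an H2A of the W type found in heterochromatin, rose in the overexpressor. It had 13.9, 12.4, 14.9 and 20.4 FPKM in the overexpressor, 6.51, 6.69, 6.46 and 7.87 FPKM in *glct2*, and 8.59, 13.1, 7.33 and 9.17 FPKM in wild types. Wild-type replicate 2 lay inside the range of the overexpressor, and the other wild types lay below it. The log2 difference was 0.64 ± 0.16 (SE) against wild types (limma, adjusted p = 0.0083) and 1.04 against *glct2* (limma, adjusted p = 0.00067). Another gene of the W type, *HTA7*, had a log2 difference of 0.03 from wild types, with an interval of −0.23 to 0.29. *HTA12* overlaps the H2B gene *At5g02570* on the opposite strand over 522 bases, the whole length of that gene. *At5g02570* was at 0 in all libraries, but the strand setting of the counting is not given in the sources used here. Whether reads of both genes were kept apart was not tested.

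The H2B gene *At3g09480* is weakly expressed. It had 2.98, 2.62, 3.12 and 2.24 FPKM in the overexpressor, against 2.23, 1.48, 2.25 and 1.54 FPKM in wild types. The groups overlapped by a narrow margin, with the lowest overexpressor library just under the highest wild type. The log2 difference was 0.38 ± 0.12 (SE, limma, adjusted p = 0.021), and it rests on 166 reads in the overexpressor and 116 reads in wild types. It missed the threshold without wild-type replicate 2 (0.32, limma adjusted p = 0.056) or 4 (0.33, limma adjusted p = 0.063), and without overexpressor replicate 1 (0.35, limma adjusted p = 0.057) or 3 (0.34, limma adjusted p = 0.062).

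**Figure D3:**
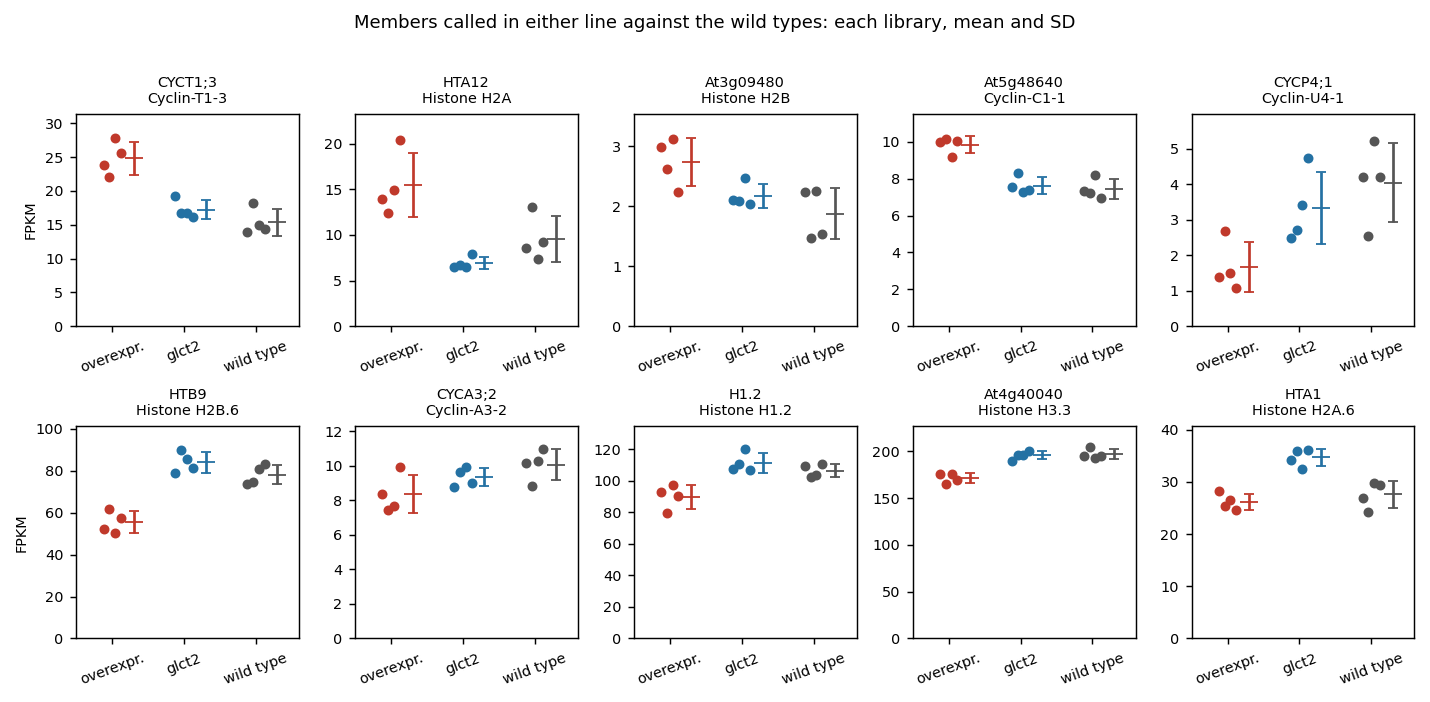
FPKM (y axis, from 0) of the 10 members that passed the test in either line, with 1 point per library and the mean and SD beside the points, for the overexpressor (red), *glct2* (blue) and wild types (grey). *HTB9*, *H1.2*, *At4g40040*, *CYCT1;3* and *At5g48640* show no overlap between the overexpressor and wild types, and in *HTA1* every *glct2* library lies above the other libraries.

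Both cyclin genes among the members that rose in the overexpressor are of types tied to transcription, whereas *CYCD4;1*, a D-type gene whose description falls outside the rule, also rose and is given with those genes further on. *CYCT1;3*, a partner of the kinase that releases RNA polymerase II into elongation, had 23.8, 22.1, 27.8 and 25.6 FPKM in the overexpressor. It had 19.2, 16.8, 16.8 and 16.1 FPKM in *glct2*, and 13.9, 18.3, 14.9 and 14.4 FPKM in wild types. All overexpressor libraries were above all others, with a log2 difference of 0.66 ± 0.09 (SE) from wild types (limma, adjusted p = 0.00018). *At5g48640*, a cyclin of the C type (Cyclin-C1-1) that belongs to the kinase module of Mediator, had 9.97, 10.2, 9.16 and 10.1 FPKM in the overexpressor. Wild types had 7.35, 7.23, 8.18 and 6.95 FPKM, so that the groups did not overlap (0.36 ± 0.06 SE, limma adjusted p = 0.00087). The related genes *CYCT1;2* and *CYCT1;4* had differences of 0.14 and 0.05 that did not pass the test.

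*CYCP4;1*, a cyclin of the U type (Cyclin-U4-1), fell to 1.38, 2.68, 1.51 and 1.08 FPKM in the overexpressor, against 4.21, 2.55, 5.23 and 4.21 FPKM in wild types. In *glct2* it had 2.48, 2.71, 3.42 and 4.74 FPKM. Overexpressor replicate 2 was just above wild-type replicate 2, and the other libraries of these 2 groups were apart. The log2 difference from wild types was −0.93 ± 0.22 (SE, limma, adjusted p = 0.0050), the largest among the members, and rests on 158 reads in the overexpressor and 395 in wild types. *CYCP2;1* had 2.92 to 6.82 FPKM in the overexpressor, against 5.57 to 8.28 FPKM in wild types, and did not pass the test (−0.46, limma adjusted p = 0.098).

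The S-phase cyclin gene *CYCA3;2* had 8.35, 7.45, 7.70 and 9.94 FPKM in the overexpressor, against 10.2, 8.83, 10.3 and 11 FPKM in wild types. The groups overlapped, and its log2 difference of −0.25 ± 0.09 (SE) was close to the threshold (limma, adjusted p = 0.044). It missed it in 13 of 20 alternative settings, with adjusted p-values of up to 0.12. *CYCA3;4* had a difference of −0.07.

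None of the 5 MCM genes among the members, *MCM2*, *MCM3*, *MCM4*, *MCM5* and *MCM7*, passed the test in either line. *MCM6* is not among the members. *MCM5* had 6.21, 7.26, 6.38 and 7.26 FPKM in the overexpressor, 7.85, 7.73, 7.75 and 7.65 FPKM in *glct2*, and 6.16, 6.06, 7.58 and 7.87 FPKM in wild types. *MCM3* had 6.50, 7.43, 7.54 and 6.78 FPKM in the overexpressor, 6.94, 7.77, 7.87 and 7.47 FPKM in *glct2*, and 7.92, 6.81, 8.07 and 7.92 FPKM in wild types. Both lines overlapped with wild types in both genes, whereas the overexpressor lay below *glct2* in *MCM5* without overlap (log2 difference −0.17, limma adjusted p = 0.13). Over all 5 genes, the log2 difference from wild types ran from −0.11 (*MCM4*, *MCM7* and *MCM3*) to 0.09 (*MCM2*) in the overexpressor and from −0.07 (*MCM4*) to 0.15 (*MCM5*) in *glct2*. All 10 intervals lay within ±0.5. *MCM7* overlaps a protein-coding gene on the opposite strand over 437 bases.

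None of the 5 tested B-type and 4 tested D-type cyclin genes among the members passed either. *CYCB1;2* had 5.15, 5.57, 3.53 and 4.72 FPKM in the overexpressor, 3.64, 4.11, 3.46 and 4.96 FPKM in *glct2*, and 3.84, 4.54, 4.96 and 6.07 FPKM in wild types. Its log2 difference in the overexpressor was −0.03, with an interval of −0.34 to 0.28, and that in *glct2* was −0.21, with an interval of −0.52 to 0.10. The other B-type genes, *CYCB2;2*, *CYCB1;3*, *CYCB1;1* and *CYCB2;3*, lay between 0.09 and 0.23 in the overexpressor, and between −0.19 and −0.01 in *glct2*. Of the D-type members, *CYCD3;1* had the highest level. It had 8.04, 8.67, 8.42 and 6.42 FPKM in the overexpressor and 9.44, 8.13, 6.45 and 11.4 FPKM in *glct2*. In wild types it had 6.37, 6.58, 7.56 and 7.40 FPKM. The interval of *CYCD3;1* reached from −0.15 to 0.45 in the overexpressor and from −0.02 to 0.59 in *glct2*. *CYCD1;1* had −0.03 and −0.10. Without overexpressor replicate 2, *CYCD5;1* was called lower in the overexpressor than in wild types (−0.43, limma adjusted p = 0.0067) and than in *glct2* (−0.44, limma adjusted p = 0.0067). Without overexpressor replicate 3, *CYCB2;3* was called higher in the overexpressor than in *glct2* (0.47, limma adjusted p = 0.012). Of the 100-base exon windows of *CYCB2;3*, 7.2% occur elsewhere in the genome, so that its counts are uncertain.

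The H3.1 and H4 genes, the histones most closely tied to S phase, did not pass the test against wild types in either line. Their log2 differences in the overexpressor lay between −0.29 and 0.05 for the 5 H3.1 genes and between −0.24 and 0.07 for the 8 H4 genes. *At5g59690* had 90.6, 90.9, 76.4 and 93.8 FPKM in the overexpressor, 106, 106, 97.1 and 106 FPKM in *glct2*, and 102, 78.0, 104 and 103 FPKM in wild types. Wild-type replicate 2 alone reached into the range of the overexpressor. *HTR2*, with its 2 octamers, showed the same, with 54.0, 60.5, 44.3 and 50.9 FPKM in the overexpressor, against 71.0, 48.8, 67.9 and 71.2 FPKM in wild types.

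Wild-type replicate 2 stood low in these genes as a class. It was the lowest wild type in 12 of the 13 H3.1 and H4 genes, in all 5 MCM genes and in 35 of the 60 tested members, against 32.2% of all genes tested. Its median log2 deviation from the other 3 wild types was −0.40 in the H3.1 and H4 genes and −0.32 in the MCM genes, against −0.01 in all genes. Overexpressor replicate 3 was likewise the lowest of its genotype in 11 of the 13 H3.1 and H4 genes, and *glct2* replicate 3 in 11 of 13, with median deviations of −0.26 and −0.14. Overexpressor replicate 2 was the highest of its genotype in 9 of the 13, with a median deviation of 0.28. The sums over the 5 H3.1 genes were 198, 234, 164 and 193 FPKM in the overexpressor, 247, 247, 215 and 243 FPKM in *glct2*, and 241, 178, 244 and 244 FPKM in wild types. The ratio of this sum to that of the 2 H3.3 genes among the members lay between 0.521 and 0.773 for the overexpressor, 0.601 and 0.726 for *glct2*, and 0.494 and 0.708 for wild types.

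**Figure D4:**
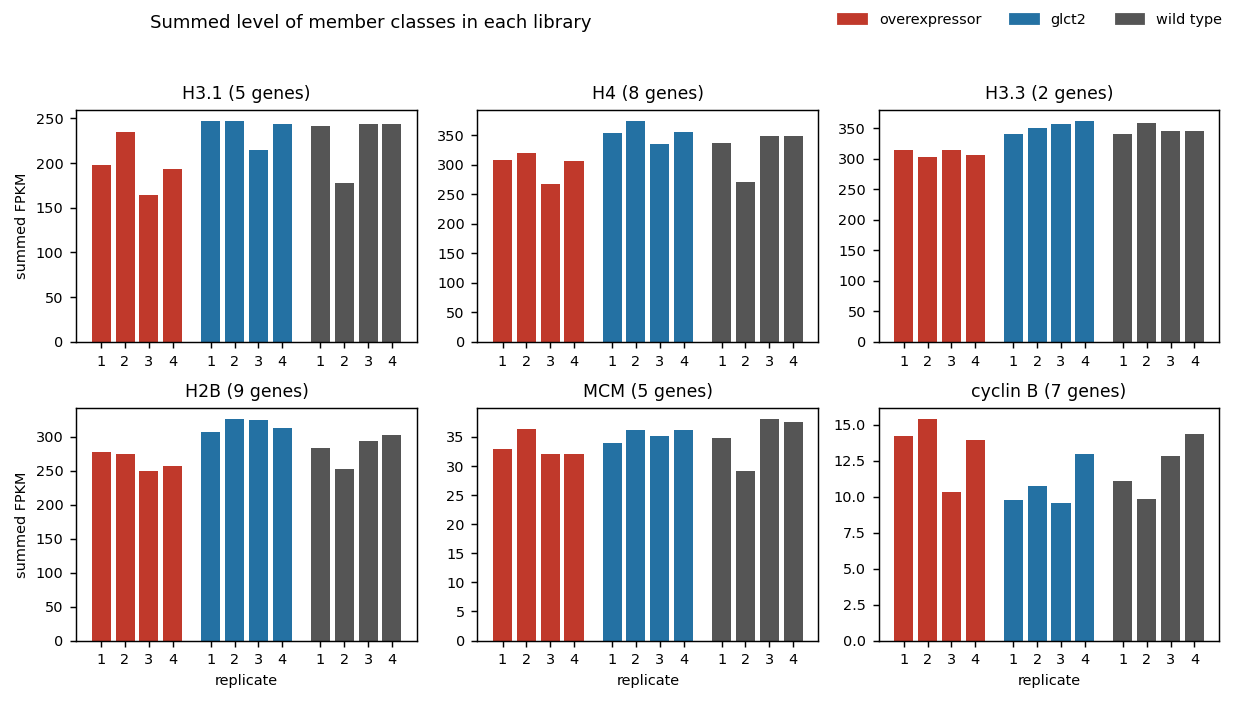
Summed FPKM (y axis, from 0) of 6 member classes in each library, with 1 bar per library numbered by replicate, for the overexpressor (red), *glct2* (blue) and wild types (grey). In the H3.1, H4 and MCM panels, wild-type replicate 2 is the lowest wild type, at 178 FPKM in H3.1, against 241 to 244 FPKM in the other 3.

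Without wild-type replicate 2, 11 members were lower in the overexpressor in place of 5, while 3 were higher, against 19.7% and 18.0% of all genes. The 6 added members were the H3.1 genes *HTR2* (log2 difference −0.42, limma adjusted p = 0.014) and *At5g65360* (−0.30, limma adjusted p = 0.046) and the H4 genes *HIS4* (−0.36), *At3g53730* (−0.27), *At5g59970* (−0.27) and *At5g59690* (−0.23). The median over the 13 H3.1 and H4 genes was −0.13 with all libraries and −0.26 without that library. The counts were 3 higher and 4 lower without overexpressor replicate 3, and 3 and 3 without wild-type replicate 4.

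In *glct2* 1 of the 60 tested members passed the test against wild types, where 4.57% of all genes did, 1.95% higher and 2.62% lower. It was *HTA1*, which encodes histone H2A.6 and is also known as *RAT5* for its part in *Agrobacterium* transformation. It had 34.2, 35.9, 32.5 and 36.2 FPKM in *glct2*, against 26.8, 24.3, 29.8 and 29.4 FPKM in wild types. In the overexpressor it had 28.2, 25.3, 26.6 and 24.5 FPKM. Every *glct2* library was above every other library (log2 difference from wild types 0.32 ± 0.07 SE, limma adjusted p = 0.031). The call was lost with a replicate block, without *glct2* replicate 1, 2 or 4 and without wild-type replicate 1, 2 or 4, with limma adjusted p-values of up to 0.077. At an unadjusted p under 0.05, 6 members were higher and 2 lower in *glct2*, 8 of 60, against 4103 of the 18354 genes tested, a smaller share than in all genes.

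The H4 genes had positive differences in *glct2* in 8 of 8 cases, from 0.02 (*At3g53730*) to 0.40 (*At5g59970*), none past the threshold. *At5g59970* had 29.6, 32.0, 26.4 and 28.6 FPKM in *glct2*, against 24.1, 16.9, 23.2 and 23.9 FPKM in wild types (limma, adjusted p = 0.074). These genes share the low wild-type replicate 2. Over the 13 H3.1 and H4 genes the median difference in *glct2* was 0.10 with this library and 0.00 without it. Of the 100-base exon windows of *At3g45930* and *At3g46320*, 11.1% and 12.1% occur elsewhere in the genome. For *At1g07660* and *At1g07820* the shares are 7.25% and 4.32%, so that the counts of all these H4 genes are uncertain.

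Between the 2 lines, 14 of the 60 tested members passed the test, with 4 higher and 10 lower in the overexpressor than in *glct2*, against 15.9% and 17.7% of all genes (33.5% in either direction). Of the 10 lower members 9 were histones, which made up 32 of the 60 tested members. The call of 1 of these, the H4 gene *At3g45930*, was lost in many settings. Among them were median-of-ratios scaling, a replicate block and voom on recovered reads (limma, adjusted p = 0.053, 0.094 and 0.063). The H4 gene *At5g59970* had 19.1, 22.3, 16.5 and 20.5 FPKM in the overexpressor, against 29.6, 32.0, 26.4 and 28.6 FPKM in *glct2* (log2 difference −0.55, limma adjusted p = 0.0037). *HTA1* differed by −0.40 (limma, adjusted p = 0.0016) and *H1.2* by −0.31 (limma, adjusted p = 0.0062). The H2B gene *HTB2* had 107, 101, 84.3 and 95.8 FPKM in the overexpressor, against 120, 124, 123 and 122 FPKM in *glct2* (−0.34, limma adjusted p = 0.027). This call was lost without any 1 of the 4 *glct2* libraries and without overexpressor replicate 3 or 4 (limma, adjusted p = 0.051 to 0.082). Both H3.3 genes among the members were lower, but not without *glct2* replicate 4 (limma, adjusted p = 0.053 for *At4g40040* and 0.055 for *HTR8*). The call of *At4g40040* was also lost with a replicate block (limma, adjusted p = 0.052). The H3.3 gene outside the rule, *At4g40030*, had 0.17 (limma, adjusted p = 0.062). *HTR2* passed at an adjusted p of 0.042 (limma, −0.39) with overlapping groups, since overexpressor replicate 2 had 60.5 FPKM and *glct2* replicate 3 had 56.9 FPKM. Its call was lost with no filter and with a replicate block. It was also lost without *glct2* replicate 1, 2 or 4, without overexpressor replicate 1, 3 or 4 and without wild-type replicate 3, with limma adjusted p-values of up to 0.12. The count of lower members was 4 without *glct2* replicate 4 and 6 without overexpressor replicate 3. It was 14 without overexpressor replicate 2 and 12 without wild-type replicate 2. This comparison shares its libraries with the 2 above.

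Histone and cyclin genes whose descriptions fall outside the rule were read beside the members. Of 22 such genes tested, 4 were higher and 3 lower in the overexpressor (18.7% and 19.9% of all genes) and 1, *HTA3*, was higher in *glct2* (1.95% of all genes). The genes named from them were chosen after their values were seen. The D-type gene *CYCD4;1* averaged 1.92 ± 0.152 FPKM in the overexpressor and 1.42 ± 0.129 FPKM in wild types (SD, n = 4 each), without overlap (0.27, limma adjusted p = 0.025). The H2A genes *HTA2* (−0.29, limma adjusted p = 0.016) and *HTA9*, of the Z type (−0.26, limma adjusted p = 0.0024), fell. The H3.3 gene *At4g40030*, the neighbour of *At4g40040*, had 194, 190, 202 and 185 FPKM in the overexpressor, against 159, 172, 161 and 171 FPKM in wild types (0.22, limma adjusted p = 0.019). The H2B gene *HTB4* had 158, 152, 154 and 156 FPKM in the overexpressor, against 133, 121, 135 and 135 FPKM in wild types (0.24, limma adjusted p = 0.0061), whereas *HTB11* fell as *HTB9* did (−0.32, limma adjusted p = 0.0038). The H1 gene *HIS1-3*, known to respond to drought, had 212, 106, 266 and 155 FPKM in the overexpressor, 147, 128, 212 and 174 FPKM in *glct2*, and 73.7, 154, 60.0 and 55.3 FPKM in wild types (1.145 in the overexpressor, limma adjusted p = 0.016). Wild-type replicate 2 was the highest wild type there.

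Of 80 further genes of the cell cycle and of replication that were tested, 13 were higher and 4 lower in the overexpressor and 4 were higher and 0 lower in *glct2*. The shares over all genes were 18.7% higher and 19.9% lower in the overexpressor, and 1.95% higher and 2.62% lower in *glct2*, so that the 13 higher genes (of 80) are no larger a share than in all genes. In the list of origin licensing and replication fork genes 6 of 21 were higher in the overexpressor and 0 lower, with a median log2 difference of 0.02 against 0.00 over all genes. *TSO2*, the small subunit of ribonucleotide reductase that makes deoxyribonucleotides, rose in both lines. It had 56.4, 60.4, 49.3 and 45.5 FPKM in the overexpressor, 48.6, 49.7, 47.7 and 48.3 FPKM in *glct2*, and 29.5, 24.7, 33.4 and 31.4 FPKM in wild types. Both lines were above all wild types, with log2 differences of 0.81 ± 0.10 in the overexpressor (SE, limma adjusted p = 6.8e-05) and 0.70 ± 0.10 in *glct2* (SE, limma adjusted p = 0.0028). The flap endonuclease gene *At5g26680* (0.67, limma adjusted p = 0.00032) and *LIG1*, DNA ligase 1 (0.49, limma adjusted p = 0.00020), both used in joining replicated fragments and in repair, rose in the overexpressor. In *glct2* they had 0.26 and 0.14 and did not pass the test.

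**Figure D5:**
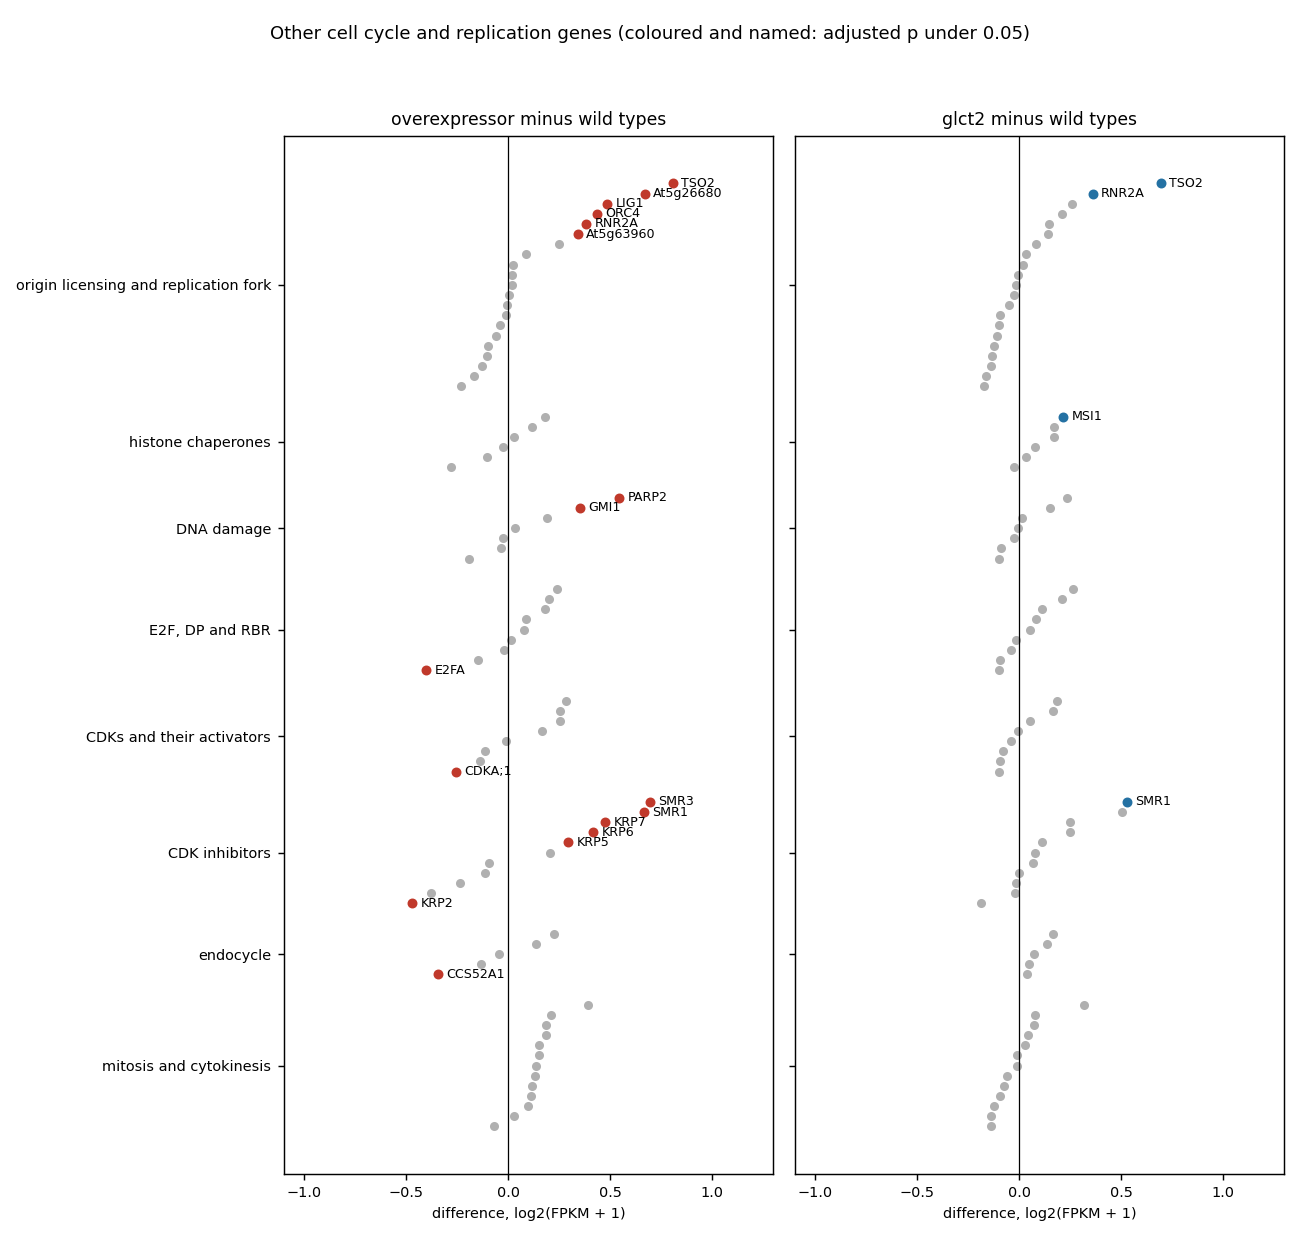
Difference from wild types (x axis, log2(FPKM + 1)) of 80 tested cell cycle and replication genes that are not members, in 8 lists, for the overexpressor (left) and *glct2* (right), with 1 point per gene in order of its value within the list. Named and coloured genes passed the test, 17 in the overexpressor and 4 in *glct2*, with *TSO2* the highest in both.

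Of 11 tested inhibitors of cyclin-dependent kinases, 5 were higher and 1 lower in the overexpressor, where 18.7% and 19.9% of all genes were, and 1 was higher in *glct2*, where 1.95% of all genes were. *SMR1* had 11.7, 12.4, 12.2 and 9.76 FPKM in the overexpressor, 11.2, 11.5, 9.39 and 9.35 FPKM in *glct2*, and 8.56, 5.95, 7.77 and 5.53 FPKM in wild types. Neither line overlapped with wild types (0.67 in the overexpressor, limma adjusted p = 0.0014, and 0.53 in *glct2*, limma adjusted p = 0.039). *SMR3* (0.70, limma adjusted p = 0.0089) and *KRP7* (0.48, limma adjusted p = 0.047) rose in the overexpressor. The calls of *KRP7* in the overexpressor and of *SMR1* in *glct2* were lost in 14 of 19 and 10 of 20 alternative settings. *KRP2*, named after its value was seen, was the 1 that fell (−0.47, limma adjusted p = 0.0044).

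*CDKA;1*, the kinase that A- and D-type cyclins activate, had 33.8, 35.6, 35.0 and 37.7 FPKM in the overexpressor, against 44.0, 43.0, 42.2 and 41.0 FPKM in wild types, without overlap (−0.25, limma adjusted p = 0.0023). *E2FA*, an activator of S-phase genes, fell as well (−0.40, limma adjusted p = 0.027), as did *CCS52A1*, an activator of the ubiquitin ligase that degrades mitotic cyclins (−0.34, limma adjusted p = 0.012). Of 7 DNA damage genes *PARP2* (0.54, limma adjusted p = 0.0037) and *GMI1* (0.35, limma adjusted p = 0.030) rose in the overexpressor, where 18.7% of all genes did. The calls of *GMI1* and *E2FA* were lost in 6 and 5 of 19 alternative settings. The histone chaperone gene *MSI1* rose in *glct2* (0.22, limma adjusted p = 0.039), a call lost in 11 of 20 settings. None of the 13 tested genes of mitosis and cytokinesis passed the test in either line. In the overexpressor 12 of their differences from wild types were positive and 1 negative, with a median log2 difference of 0.14 against 0.00 over all genes. In *glct2* 5 were positive and 8 negative, with a median of −0.01.

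Markers of growing tissue were read as well. The summed FPKM of 5 shoot meristem genes was 25.4 to 36.3 in the overexpressor, 32.0 to 36.6 in *glct2* and 35.3 to 42.1 in wild types. Of the 3 tested, 1, *CLV1*, fell in the overexpressor (−0.46, limma adjusted p = 0.014), where 19.9% of all genes were lower. The log2 differences of these 3 ran from −0.46 to 0.31, with 2 negative and 1 positive. The sum of 6 genes of young leaf growth was 20.4 to 31.0 in the overexpressor, 27.0 to 28.2 in *glct2* and 24.1 to 26.3 in wild types. Of the 6, 1 (*GRF2*) was lower in the overexpressor, against 19.9% of all genes. None of 7 stomatal lineage genes passed the test, with sums of 18.2 to 27.7 FPKM for the overexpressor, 21.0 to 26.7 FPKM for *glct2* and 19.0 to 24.9 FPKM for wild types. The part of these cells in the results was not tested.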

How the data were processed

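RNA of 12 leaf samples, 4 per genotype, was sequenced from directional libraries. The authors deposited FPKM values per gene, and the submitters' processing notes list the build TAIR10 and the tools StringTie 1.3.3, HISAT2 2.0.5 and fastp. The counting program and its strand setting are not given in the sources used here. FPKM × gene length gave whole multiples of 1 step per library (tolerance 0.01), from which reads were recovered. A gene that reached 1 FPKM in 4 or more libraries was tested on log2(FPKM + 1) with limma 3.58.1 (R 4.3.3, trended prior) in 1 fit over the 3 genotypes, with 9 residual degrees of freedom and Benjamini-Hochberg adjustment over all 18354 genes. This scale understates the change of genes of low level. Errors are SE of the fit, and intervals cover 95%. Groups came from the sample labels. Alternatives were voom on recovered reads, fits of 2 groups alone, a replicate block, scaling by median of ratios, pseudocounts of 0.1 or 5, filters at 0 or 5 FPKM, and leaving out each library in turn. Fits were tested on simulated data. Named were called members, the highest 2 of each class, all MCM genes among the members and up to 3 called genes per pathway list. The members and gene lists were chosen with earlier results of these data known. Promoter sequences came from RefSeq TAIR10.1.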

Additional observations from a re-analysis of the deposited data

Results flagged for a closer look

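In 12 of the 165 groups of 4 libraries examined, the highest or lowest library lay far from the other 3, by Dixon's criterion on the gap to its nearest neighbour. Chance marks about 1 in 20 such groups, and the sums and genes below overlap. Of the 12, 7 were wild-type replicate 2, each time as the lowest. It had 6.49 FPKM in *MCM7* (8.28 to 8.62 in the other 3 wild types), 6.81 FPKM in *MCM3* (7.92 to 8.07), 78.0 FPKM in *At5g59690* (102 to 104.5) and 8.32 FPKM in *LIG1* (8.79 to 8.86). The summed FPKM of H3, H4 and H3.1 in this library were 541 (587 to 593), 271 (337 to 349.5) and 178 (241 to 244).

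In *glct2*, replicate 4 had 7.87 FPKM in *HTA12* (6.46 to 6.70 in the other 3 *glct2* libraries), and replicate 1 had a cyclin A sum of 18.8 FPKM (20.9 to 21.2). Replicate 3 had 2.47 FPKM in *At3g09480* (2.03 to 2.10), 97.1 FPKM in *At5g59690* (105.7 to 106) and an H3.1 sum of 215 FPKM (243 to 247).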

How the results depend on the processing

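The count of lower members in the overexpressor against wild types depended on single libraries, with 3 to 11 over the fits that left out 1 library each, 11 without wild-type replicate 2 and 3 without wild-type replicate 4. Over the same fits, the overexpressor had 3 to 4 higher members against wild types, and 3 to 4 higher and 4 to 14 lower members against *glct2*, while *glct2* had 0 to 1 higher and 0 lower members against wild types. The replicate numbers did not pair the libraries across all 3 genotypes. Over 12 pairs with the same number the correlation of deviations ran from −0.33 to 0.33, with 7 above 0.1, and 3 libraries correlated best with their own number. Between the overexpressor and *glct2*, however, pairs with the same number had 0.18, 0.15, 0.14 and 0.12. Pairs of these lines with different numbers ran from −0.18 to 0.082. With the number as a block, the 1 higher member in *glct2* became 0. Lower members in the overexpressor against *glct2* became 7 in place of 10. Of 2075 values of 41 named genes under the alternatives, 1943 kept direction and side of the threshold, 94 lost and 5 gained a call, and 33 changed sign, none of them called. Those were values near 0. *CYCB2;2* in *glct2* changed to 0.0028 with a pseudocount of 0.1 and to 0.041 with voom on recovered reads, and ran from −0.15 to 0.064 when 1 library was left out. In the same fits, against wild types, the overexpressor ran from −0.074 to 0.036 in *MCM5*, −0.033 to 0.084 in *HTA5*, −0.075 to 0.16 in *HTA7*, −0.16 to 0.015 in *HTB2*, −0.048 to 0.047 in *At1g07820*, −0.11 to 0.013 in *CYCA3;4*, −0.11 to 0.081 in *CYCB1;2* and −0.14 to 0.072 in *CYCD1;1*. In *glct2* it ran from −0.0019 to 0.076 in *At5g48640*, −0.021 to 0.0079 in *At4g40040*, −0.013 to 0.12 in *MCM2*, −0.077 to 0.0065 in *MCM3* and −0.10 to 0.018 in *MCM7*, and between the lines from −0.18 to 0.063 in *KRP7*. *At3g09480* and *CYCP4;1* rest on few reads, 166 and 158 in the overexpressor. The cause of these changes was not tested.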
